A study of Homo sapiens with 6 samples.

Results

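To describe where ZNF469 sat inside genes when no AP-1 site lay beneath it, the peak list of full-length ZNF469 was searched for intronic regions whose summit lacked that site. A region was taken when its summit, the base of highest signal, lay over 1 kb from every annotated transcription start, inside a gene, in no exon of any transcript, and when the 101 bases centred on the summit held neither TGACTCA nor TGAGTCA on either strand. Of 19108 full-length regions, 6688 met the rule and are called members here. They made up most of the 8679 intronic regions, and the other 1991 held an AP-1 site in the same window. Positions are hg38 and genes are those of GENCODE version 44.

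The regions came from CUT&RUN, which uses an antibody to bring a nuclease to its target on chromatin and sequences the fragments that are cut free, here with an antibody against ZNF469. The cells were LX-2, an immortalized human line made from hepatic stellate cells, which lay down collagen in the injured liver. They carried a piggyBac transgene switched on by doxycycline, either full-length ZNF469 or dZF-ZNF469, from which most of the zinc fingers were deleted, and all were given 1 ug/mL doxycycline for 24 h in medium with a stable ascorbic acid. Each construct was measured in 3 libraries of its own line (clone3.4 for full-length, clone3.1 for dZF), so the construct and any other difference between the lines cannot be told apart. The 3 libraries of each construct had been pooled into 1 list, which held 19108 regions for full-length ZNF469 and 54 for dZF-ZNF469. No value per library was used, so no value below has a replicate error and no difference was tested. The 95% intervals are Wilson limits for shares, order-statistic limits for medians and exact Poisson limits for counts, and cover counting error only. A peak list holds no RNA levels, so neither the identity of the cells nor the activity of a host gene was checked.

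AP-1 is a dimer of FOS and JUN family proteins that binds TGACTCA, which reads TGAGTCA on the other strand, and it is a common partner of TEAD and RUNX factors at enhancers of fibroblast-like cells. TEAD factors carry the Hippo pathway coactivators YAP and TAZ to DNA, and RUNX factors bind with their partner CBFB. Introns of matrix and cytoskeletal genes hold many enhancers, often in the first intron. ZNF469 is a large zinc finger protein known from brittle cornea syndrome, a disorder of collagen-rich tissue.

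Summit windows of 11 members show the letters on which the motif results turn. They are the member of highest fold, the members of highest fold with a TEAD, RUNX, CRE (TGACGTCA) or CTCF match or a word 1 base away from the AP-1 consensus, the members of highest fold in a collagen, a TGF-beta pathway and a Hippo pathway gene, and the members of highest pileup overall and in TRIO (the last pair was added after values were seen). Each window is written on the plus strand of hg38, 5′ to 3′. Capitals mark the named matches, some of which read as the motif on the minus strand.
HERC3 intron 4, 1 base from AP-1, chr4:88623269-88623369: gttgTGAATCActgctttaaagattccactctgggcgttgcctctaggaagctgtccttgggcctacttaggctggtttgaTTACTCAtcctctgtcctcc
COL3A1 intron 34, 1 base from AP-1, chr2:189002199-189002299: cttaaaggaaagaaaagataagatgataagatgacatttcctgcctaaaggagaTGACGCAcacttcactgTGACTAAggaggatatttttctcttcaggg
TRIO intron 1, 1 base from AP-1, chr5:14190592-14190692: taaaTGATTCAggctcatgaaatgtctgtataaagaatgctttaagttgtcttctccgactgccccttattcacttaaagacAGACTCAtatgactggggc
ENSG00000286022 intron 1, TEAD, chr20:2237288-2237388: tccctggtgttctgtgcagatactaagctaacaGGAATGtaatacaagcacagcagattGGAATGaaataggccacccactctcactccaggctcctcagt
COL27A1 intron 41, TEAD, chr9:114288333-114288433: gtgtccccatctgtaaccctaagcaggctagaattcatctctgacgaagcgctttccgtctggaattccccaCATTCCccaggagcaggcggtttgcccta
BASP1 intron 1, RUNX, chr5:17238930-17239030: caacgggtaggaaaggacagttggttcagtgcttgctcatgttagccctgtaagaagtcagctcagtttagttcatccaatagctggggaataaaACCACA
SMAD3 intron 5, 1 base from AP-1 and TEAD, chr15:67178772-67178872: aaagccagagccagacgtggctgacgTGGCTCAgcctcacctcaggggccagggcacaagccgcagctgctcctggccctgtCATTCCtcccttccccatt
CTTNBP2NL intron 1, CRE, chr1:112404425-112404525: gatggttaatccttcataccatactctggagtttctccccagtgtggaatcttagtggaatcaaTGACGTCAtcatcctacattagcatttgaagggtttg
RBMS1 intron 1, CTCF core, chr2:160432696-160432796: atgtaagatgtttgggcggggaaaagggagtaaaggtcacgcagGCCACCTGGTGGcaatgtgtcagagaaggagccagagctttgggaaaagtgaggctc
AMOTL2 intron 9, no capitals, chr3:134358130-134358230: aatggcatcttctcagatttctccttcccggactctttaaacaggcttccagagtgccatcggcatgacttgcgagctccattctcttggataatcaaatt
ENSG00000290999 intron 9, no capitals, chr1:120535260-120535360: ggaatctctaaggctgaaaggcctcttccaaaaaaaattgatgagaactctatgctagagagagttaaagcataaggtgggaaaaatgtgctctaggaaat

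These windows differed widely in their values. The HERC3 window (ENSG00000287542, chromosome 4) had a fold enrichment of 18.0 and a −log10 p-value of 50.3. The fold is the deposited ratio of summit signal to local background, and the fragment numbers recovered here give it when 1 fragment is added to each, so at a low background it is well below the plain ratio of the fragment numbers. The pileup, the number of fragments over the summit recovered from these values, was 46 in HERC3 (95% limits 33.7 to 61.4) over a background of 1.62. The COL3A1 window, in the gene for type III collagen, had a pileup of 277 (245 to 312) over a local background of 31.6 fragments, which gave a fold of only 8.54. BASP1 encodes a membrane-bound signalling protein. It held the RUNX window of highest fold off chromosome 8, at 112 fragments (92.2 to 135) and 15.2-fold enrichment. Its RUNX match was at the very end of the window, and an AP-1 site lay elsewhere in the record. The TEAD window of the long noncoding RNA gene ENSG00000286022 on chromosome 20 had 2 matches to GGAATG and 58 fragments (44 to 75), a fold of 15.6. COL27A1, a fibrillar collagen gene, had 1 TEAD match and 74 fragments (58.1 to 92.9), a fold of 14.1. The window of SMAD3, the transducer of TGF-beta receptors, held both a TEAD match and a word 1 base from AP-1, with a fold of 12.3. That word, TGGCTCA, reads TGAGCCA on the other strand and was in 3.33% of member windows but in 4.85% of windows 1 kb away. The AMOTL2 window had no match to AP-1 variants, TEAD or RUNX, yet its summit reached 60 fragments (45.8 to 77.2) and a fold of 10.9. AMOTL2 binds YAP.

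Over all members, the fold enrichment had a median of 7.25 (7.20 to 7.31), and the middle 50% of them ran from 6.17 to 8.58, the whole set from 2.39 to 21.5. The median −log10 p-value was 14.9 (14.7 to 15.1), with a range of 2.33 to 157. The median pileup was 20 fragments (quartiles 16 and 27) over a median background of 1.84 fragments. Regions were 453 bp wide in the median (448 to 459). These values were close to those of the other full-length regions. The median fold was 7.51 (7.43 to 7.58) in intronic regions with an AP-1 site, 7.34 (7.28 to 7.41) in intergenic regions without one, and 7.36 over the whole list. A fold of at least 5 was reached by 93.2% of members (92.6% to 93.8%) and by 97.2% of intronic AP-1 regions (96.4% to 97.8%). At a fold of at least 10 the shares were 9.78% and 9.90% with overlapping intervals. A −log10 p-value in the upper 10% of the list was found in 9.94% of members (9.25% to 10.7%) and 7.99% of intronic AP-1 regions (6.88% to 9.26%).

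**Figure D1:**
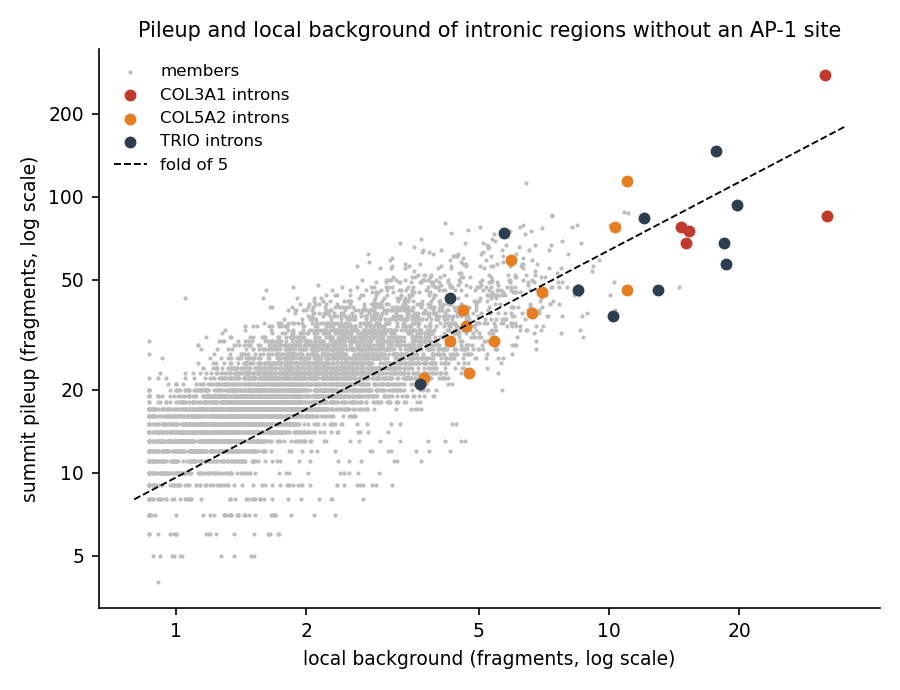
Summit pileup against local background, both in fragments on log scales, for the 6688 members (grey points), with the members in introns of COL3A1, COL5A2 and TRIO in colour and a dashed line at a fold of 5. Most members lie between 1 and 5 fragments of background, whereas COL3A1 and TRIO hold 12 of the 22 members with a background over 10.

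Pileup was higher where background was higher. Both were recovered from the same fold and p-value, so at a given fold a higher background means a higher pileup. In the 489 members with a background of up to 1 fragment the median pileup was 13, in the 3278 between 1 and 2 it was 17, in the 2661 between 2 and 5 it was 26, and in the 238 between 5 and 10 it was 44. The median fold was 7.23, 7.38, 7.16 and 6.36 in the same order. The 22 members with a background over 10 had a median pileup of 76.5 and a median fold of 4.47. Of these, 7 were in TRIO, 5 in COL3A1, 3 each in COL5A2 and VMP1, 2 in LINC-PINT and 1 each in ADAM9 and MYL12A. High pileups came with low and with high folds: the 5 highest, in COL3A1, TRIO, COL5A2, BASP1 and again TRIO, had folds of 8.54, 7.86, 9.55, 15.2 and 4.52, against 17 members in all with a fold of at least 15.

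The rule looked only 50 bases to each side of the summit, and many members had an AP-1 site a little farther out. An AP-1 consensus lay elsewhere in the record of 2461 members (36.8%, 35.7% to 38.0%), at a median of 94 bp from the summit (92 to 97). The same records moved by 2 kb to each side held one in 7.86% (7.41% to 8.33%). Members with such a site had a median fold of 7.54 (7.45 to 7.64) and a width of 494 bp. The 4227 without had a fold of 7.10 (7.03 to 7.17) and a width of 429 bp. A wider record has more bases in which to hold a site, so the difference in width partly follows from the split. At the limit of the rule, the 1342 members with a site centred 48 to 100 bases from the summit had a median fold of 7.55, next to 7.51 in the 1991 intronic regions just excluded for a closer site and 7.19 in the 5346 members with none within 100 bases. At the other limit, the 343 members 1 to 1.5 kb from a transcription start had a median fold of 7.02, and the 380 regions 0.5 to 1 kb from one had 6.96.

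Inside the summit window, the motif most often present was a near miss of AP-1. A word exactly 1 base away from the consensus was found in 3123 members (46.7%, 45.5% to 47.9%) and in 27.3% (26.5% to 28.0%) of windows of equal length 1 kb to each side, a ratio of 1.71. TEAD (GGAATG) was found in 950 members (14.2%, 13.4% to 15.1%) and in 6.0% of flanks (5.61% to 6.42%), a ratio of 2.37. RUNX (TGTGGT or TGCGGT) was found in 861 members (12.9%, 12.1% to 13.7%) and in 7.63% of flanks (7.20% to 8.10%), a ratio of 1.69. Both strands were searched, and flanks were not screened for exons or other motifs. All 3 shares were lower in intronic regions with an AP-1 site, at 37.7% (35.6% to 39.8%) for near misses, 10.7% (9.37% to 12.1%) for TEAD and 9.74% (8.52% to 11.1%) for RUNX. In intergenic regions without an AP-1 site they were 46.8%, 15% and 11.6%, and each of these intervals overlapped that of the members. Within 1 kb of a transcription start the same shares were 25.5%, 6.80% and 7.59%.

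**Figure D2:**
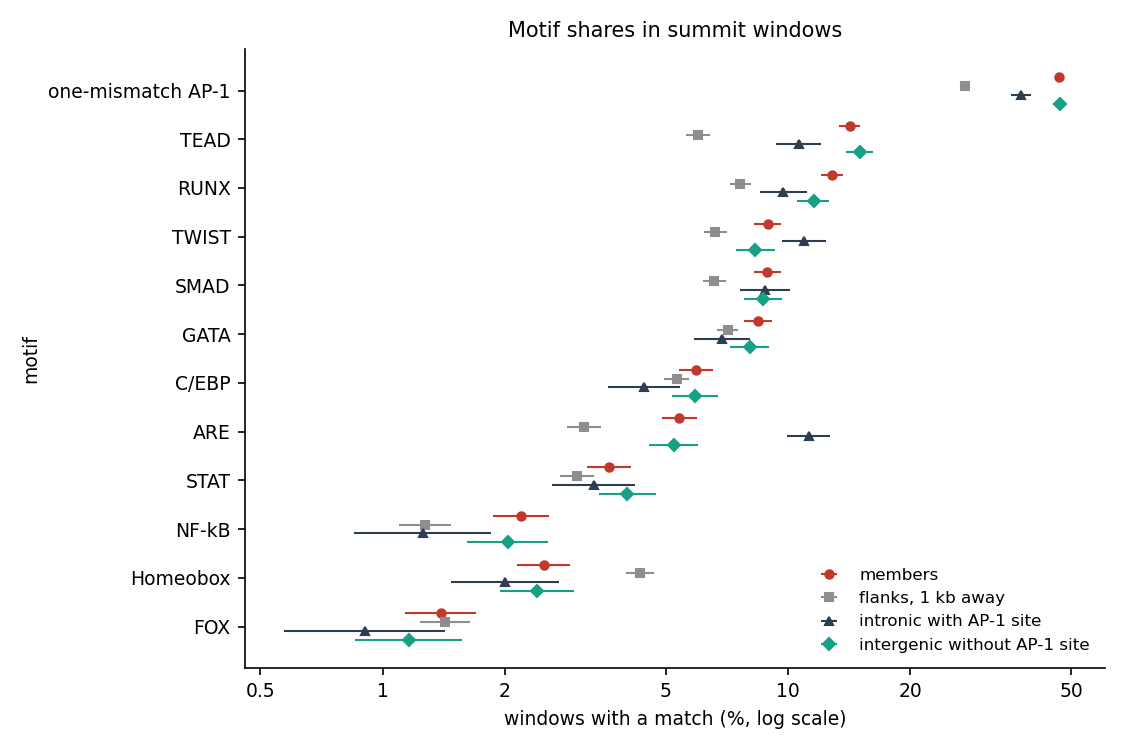
Share of summit windows with a match to each of 12 motifs (per cent, log scale) in members, in their flanks 1 kb away, in intronic regions with an AP-1 site and in intergenic regions without one, with 95% Wilson limits as bars. Near misses of AP-1, TEAD and RUNX stand above the flanks in members (46.7% against 27.3%, 14.2% against 6.0%, 12.9% against 7.63%), and the homeobox word stands below them (2.5% against 4.32%).

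TEAD, RUNX and near-miss matches were most frequent at the summit. In bins of 50 bp, near misses of AP-1 were present in 28.8% of members at the summit and in 15% to 16% of them at distances of 750 bp and more. For TEAD the share was 7.64% at the summit and 2.68% to 3.39% at a distance, and for RUNX 7.25% and 3.83% to 4.52%. The AP-1 consensus itself, which the rule removed from the centre, was in 7.12% and 7.60% of members in the bins 100 bp to either side and in 0.628% to 1.12% at a distance. GATA had 4.34% at the summit and 3.66% to 4.26% at a distance, and its highest share, 5.28%, was in the bin at +50 bp. The homeobox word was rarer at the summit, with 1.23% there and 1.79% to 2.56% at a distance.

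**Figure D3:**
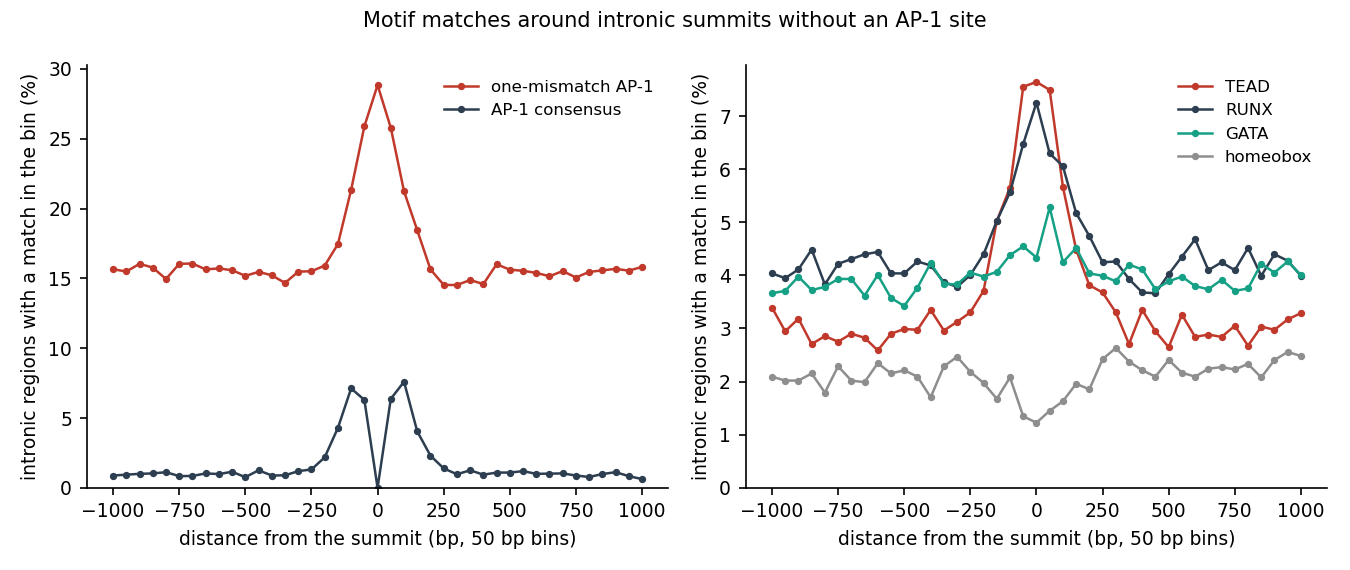
Share of the 6688 members with a match in each 50 bp bin (per cent) against the distance of the bin from the summit (bp), for near misses of AP-1 and the AP-1 consensus on the left and for TEAD, RUNX, GATA and the homeobox word on the right. Near misses reach 28.8% at the summit, the consensus has shoulders of 7.12% and 7.60% beside the empty centre that the rule leaves, and the homeobox word dips to 1.23%.

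Near misses were unequal. Because the consensus is a palindrome around its central base, joining both strands leaves 19 words that differ from it at position 4, 5, 6 or 7, counted from 1 at the 5′ end. TGACTAA (C6A) was in 612 members (9.15%, 8.48% to 9.87%) and in 1.2% of flanks, a ratio of 7.60. TGAATCA (C4A, the central base) was in 682 members (10.2%, 9.50% to 11.0%) and 1.71% of flanks, a ratio of 5.98. TGAGTAA (C6A) was in 462 members (6.91%, 6.33% to 7.54%) and 1.47% of flanks, a ratio of 4.69. Any of these 3 words was present in 1629 members (24.4%, 23.3% to 25.4%), against 4.33% of flanks, 13.6% of intronic AP-1 regions (12.2% to 15.2%), 24.6% of intergenic regions without AP-1 and 8.14% of regions near a start. They were singled out after their values were seen.

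The rest of the near misses stood closer to the flanks or below them. Words changed at position 5 ran from a ratio of 0.486 for TGAGGCA (T5G) to 3.00 for TGACGCA (T5G), which was in only 36 members. Words changed at position 7 ran from 1.33 to 3.22, and those changed at position 6 from 1.55 to 7.60. TGAGGCA and TGAGCCA (T5C) were in 4.55% and 4.85% of flanks but in 2.21% and 3.33% of members. Members with one of the 3 leading words had a median fold of 7.38 (7.27 to 7.47), and those with other near misses only had 7.33 (7.24 to 7.44), and these intervals overlapped.

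A search with no motif in mind gave the same letters. Among all words of 7 bases present in at least 2% of member windows, 1370 in number with strands joined, the 10 with the highest ratio to the flanks were TGACTAA (ratio 7.60), TGAATCA (5.98), ATGACTA (5.68), GTGACTA (5.50), ATGAATC (4.95), ATTAGTC (4.86), CTTAGTC (4.8), TGAGTAA (4.69), GACTAAC (4.19) and GATTCAC (3.73). Of these, 3 were near misses of AP-1 and all 10 shared 6 letters with one. Words with the TEAD core followed, with GCATTCC at rank 14 (3.86% of members, 1.17% of flanks, ratio 3.31) and ACATTCC at rank 16 (5.16% and 1.64%, ratio 3.15). A RUNX word, AACCACA, stood at rank 25 (4.89% and 1.76%, ratio 2.78). In all, 70 of these words had a ratio over 2 and 33 had one under 0.5. The 2% limit was set on member windows alone, so words rarer there were left out however common in flanks. The 2 counts can therefore not be set against each other. The lowest ratios among the 1370 were those of CAAAAAA (2.47% of members, 7.49% of flanks, ratio 0.329), GCCTCCC (ratio 0.332) and AAAATTA (ratio 0.334).

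By combination, 4048 members (60.5%, 59.4% to 61.7%) held a near miss of AP-1, a TEAD or a RUNX match, where the flanks held one in 36.2% and 37.3% on either side. A near miss alone was in 2376 members, TEAD alone in 460 and RUNX alone in 378. TEAD was found in 12.9% (11.8% to 14.1%) of members with a near miss and in 15.3% (14.2% to 16.6%) of those without, and RUNX in 12.7% and 13.0%. RUNX was found in 14.6% (12.5% to 17.0%) of members with TEAD and in 12.6% (11.8% to 13.5%) of those without. TEAD and RUNX shared a window in 139 members (2.08%, 1.76% to 2.45%), against 0.359% of the windows on each flank, and these had a median fold of 7.62 (7.36 to 8.04) and a median pileup of 23 (22 to 25). All 3 were in 52 members. Members with at least 1 of the 3 had a median fold of 7.37 (7.31 to 7.43), and the 2640 with none had 7.08 (6.99 to 7.16). The 1523 members with none of the 3 in the window and no AP-1 site anywhere in the record made up 22.8% of all, and their median fold was 6.83 (6.75 to 6.93).

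Other motifs were rarer, closer to the flanks, or both. NF-kB was in 2.2% of members (1.87% to 2.58%) and 1.27% of flanks (1.10% to 1.48%), and the ARE (TGACNNNGC), bound by NRF2 and BACH proteins, in 5.40% (4.88% to 5.97%) and 3.14% (2.86% to 3.45%). The ARE can overlap an AP-1 site or a near miss, and its share was 11.3% in intronic regions with an AP-1 site. SMAD (CAGACA) was in 8.88% (8.22% to 9.59%) against 6.59% (6.18% to 7.02%), and TWIST (CATCTG) in 8.91% (8.25% to 9.62%) against 6.62% (6.22% to 7.06%). The GATA factor word AGATAA was in 8.42% against 7.10% and the nuclear receptor word AGGTCA in 8.63% against 7.11%, with intervals that did not overlap. For C/EBP (TTGCNNAA, 5.94% against 5.32%), forkhead (TGTTTAC, 1.39% against 1.43%), TCF/LEF (CTTTGAT, 1.5% against 1.43%), OCT (ATGCAAAT, 0.837% against 0.830%) and the NFI word TTGGC (18.8% against 17.7%) the shares of members and flanks lay close together. Low shares were also found for STAT (TTCNNNGAA, 3.62% against 3.02%), the E-box CACGTG (1.05% against 0.927%), YY1 (GCCATCTT, 0.464% against 0.449%) and MEF2 (0.194% against 0.269%). The CArG box was rare too, in 0.987% (0.777% to 1.25%) against 0.613% (0.494% to 0.760%), a ratio of 1.61 with separate intervals. The CRE was in 13 members (0.194%, 0.114% to 0.332%) and in 5 of 13376 flanks (0.0374%, 0.0160% to 0.0875%), a ratio of 5.2 on few matches. The NFI palindrome and the glucocorticoid response element were in 1 member each, the p53 element in none, the CTCF core in 3 and the NRF1 word GCGCATGCG in none (0 of 6688, upper Wilson limit 0.0574%).

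Words typical of promoters were rare. The GC box GGGCGG was in 1.88% of members (1.59% to 2.24%) and in 30.5% of regions within 1 kb of a start, and ETS (CCGGAAG) in 0.434% (0.302% to 0.622%) and 3.92%. In the flanks the GC box was in 1.56% (1.36% to 1.78%) and ETS in 0.157% (0.103% to 0.240%), which gave ratios of 1.21 and 2.76. The median GC content of the window was 42.6% in members, 41.6% in their flanks, 44.6% in intronic AP-1 regions and 58.4% near starts, and 55.2% of member windows held a CpG against 87.8% near starts. The homeobox word TAATTA, made of A and T, was in 2.5% of members (2.15% to 2.90%) and 4.32% of flanks (3.99% to 4.68%). The part of base composition and of repeated sequence in these shares was not tested, since the genome used here carried no repeat marks.

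Members were densest in first introns. Of the 6688, 5922 fell in an intron of the canonical transcript of the host gene, and 766 in sequence that is intronic in other transcripts only or outside the canonical one. The first intron held 1937 (32.7%, 31.5% to 33.9%), the second 1147 (19.4%, 18.4% to 20.4%), the third 692 (11.7%), the fourth 445 (7.51%), the fifth 272 (4.59%), and later introns 1429 (24.1%, 23.1% to 25.2%). Eligible bases, that is intronic bases over 1 kb from a start, were in first introns for 24.6% of the host genes' total and for 27.5% of the total of all genes. Sixth and later introns took 31.4% and 28.1% of the same bases. The density was 5.28 members per Mb of eligible first intron (5.05 to 5.52), 4.55 in second introns (4.29 to 4.82) and 3.81 in sixth and later ones (3.61 to 4.01). Intronic AP-1 regions had the same order, with 33.3% (31.1% to 35.5%) in the first intron.

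**Figure D4:**
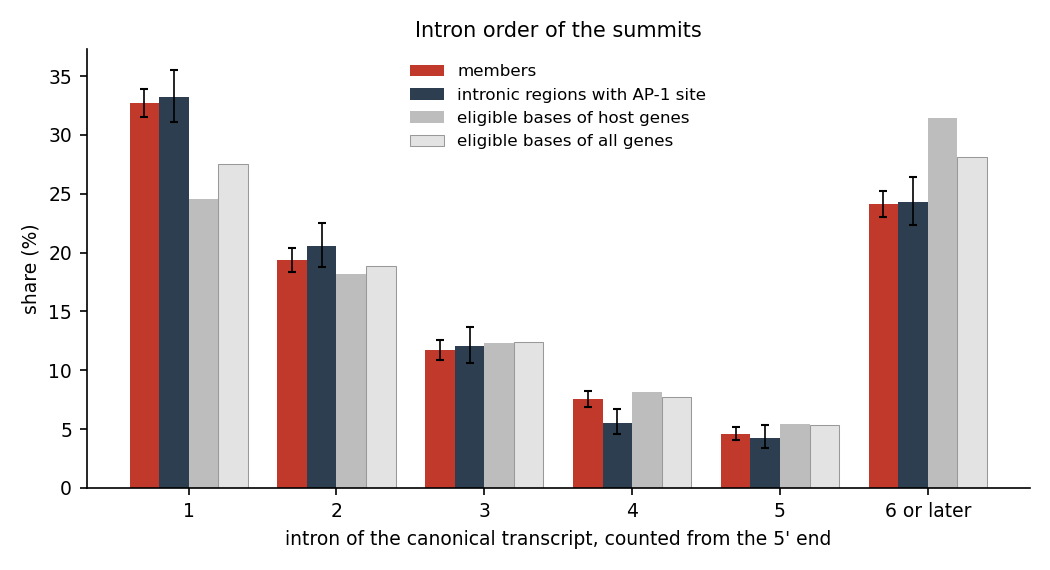
Share (per cent) of members and of intronic regions with an AP-1 site by intron of the canonical transcript, with 95% Wilson limits, beside the share of eligible bases in the same introns of host genes and of all genes. First introns hold 32.7% of members on 24.6% to 27.5% of the bases, and sixth and later introns 24.1% on 28.1% to 31.4%.

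Fold varied little with position. The median intron with a member was 41.2 kb long (39.8 to 43.0), and members lay at a median of 48.8% of its length (47.7% to 50.0%). Members of first introns had a median fold of 7.13 (7.03 to 7.21) and a pileup of 21, those of second introns 7.38 (7.27 to 7.51) and 21, and those of sixth and later introns 7.36 (7.25 to 7.47) and 20. The nearest transcription start was 10.3 kb away in the median (9.89 to 10.7). The median fold was 7.14 in the 1900 members 1 to 5 kb from a start, 7.32 in the 1818 between 10 and 25 kb, and 7.33 in the 142 beyond 100 kb.

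The members had 3559 host genes. Protein-coding genes held 5177 (77.4%, 76.4% to 78.4%), long noncoding RNA genes 1460 (21.8%) and other genes 51. Where genes overlapped, which was so for 815 members, the protein-coding and then the longer gene was taken as host. The density was 4.75 per Mb of eligible intron (4.62 to 4.88) in protein-coding genes and 3.75 (3.56 to 3.94) in long noncoding RNA genes, and intergenic regions without AP-1 reached 3.14 per Mb (3.03 to 3.24) of eligible intergenic sequence. Of the hosts, 2186 had 1 member, 227 had 5 or more and 35 had 10 or more, and the 227 held 23.8% of all members. Of 2711 protein-coding hosts, 32.5% (30.7% to 34.3%) were also marked within 1 kb of a start and 27.1% (25.4% to 28.8%) by an intronic region with an AP-1 site, against 23.5% and 7.21% of the 16468 protein-coding genes with eligible introns. Long genes offer more room for any region, so these shares are not adjusted for length.

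The gene with the most members was the long noncoding RNA gene ENSG00000258077 on chromosome 12, with 20 in 400.1 kb of eligible intron, followed by PDE4D with 19 in 1493 kb. PDE4D encodes a phosphodiesterase that degrades cyclic AMP, and 11 of its members were in the first intron. RAD51B, a homologous recombination gene, had 17 members and none in the first intron. RUNX1, which encodes a RUNX factor, had 16 in 1165 kb, with folds of 3.85 to 9.65 and a RUNX match in 1, where 12.9% of all members had one. Most of these 16 lay in no intron of the canonical RUNX1 transcript, and the rest were in its introns 2, 4 and 7. DST, which links the cytoskeleton to adhesion sites, and EXT1, which builds heparan sulfate chains, had 15 each, and all 15 of EXT1 were in its only intron used, the first. NRG1, the ligand of ERBB receptors, had 13, as had LINC01331 and the noncoding gene ENSG00000224228. At 12 members stood COL5A2, NAV2, ASAP1, SEMA5A and ENSG00000288714. Among these 14 genes, the highest density was 67.5 per Mb in COL5A2, a type V collagen chain, and the lowest 11.2 per Mb in NRG1. The highest fold in any of the 14 was 12.4, in ENSG00000258077.

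COL3A1 and COL5A2 are neighbours on chromosome 2 and run in opposite directions. The 5 members of COL3A1, in introns 1, 4, 16, 32 and 34, had pileups of 78, 75, 68, 85 and 277 fragments over backgrounds of 14.7, 15.4, 15, 31.9 and 31.6, and folds of 5.04, 4.65, 4.3, 2.62 and 8.54. All 5 exceeded the upper quartile of members by pileup, and 4 of them lay below the lower quartile by fold. A near miss of AP-1 was in 3 of them, where 46.7% of all members had one. The intron 34 window held both TGACGCA and TGACTAA, as printed above. The 12 members of COL5A2 ran from a pileup of 22 to 114 and from a fold of 3.90 to 9.55, over backgrounds of 3.75 to 11.0. The highest, in intron 6, had a near miss of AP-1 and 114 fragments (94.0 to 137), a fold of 9.55. No member lay in COL1A1 or COL1A2, the genes of type I collagen. The rule leaves out exons, sequence within 1 kb of any start and windows with an AP-1 site. The absence of members therefore does not say that these genes held no full-length region.

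TRIO, which encodes a guanine nucleotide exchange factor, had 11 members on chromosome 5, of which 8 were in the first intron. Their pileups ran from 21 to 146 and their folds from 2.95 to 11.2, with backgrounds of 3.67 to 19.8. The highest pileup was that of the printed window in intron 1, at 146 (123 to 172), with 2 near misses of AP-1 and a further AP-1 site elsewhere in the record. The highest fold was in intron 30, at 11.2, where 74 fragments (58.1 to 92.9) lay over a background of 5.73. The 7 members with backgrounds over 10 were all in the first intron, and the 4 others had backgrounds of 3.67 to 8.48. Chromosome 5 as a whole had 615 members at 6.63 per Mb of eligible intron with a median background of 2.59, against 4.45 per Mb and 1.84 over all chromosomes. The part of the higher background in this count was not tested.

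Lists of genes by role showed where members were dense. Shares of genes with a member, here and in the lists below, are not adjusted for gene length. Over all protein-coding genes with eligible introns, 16.5% had a member, at 4.75 members per Mb (4.62 to 4.88). Among 44 collagen genes 19 had one (43.2%), with 58 members at 9.96 per Mb (7.56 to 12.9), a median fold of 6.45 (6.0 to 6.99) and a median background of 2.97. COL5A2 had 12 of them, COL15A1 6, and COL3A1 and COL4A2 5 each. Of 36 genes for matrix glycoproteins and cross-linking enzymes, 11 had a member, with 31 members at 15.6 per Mb (10.6 to 22.2). They were led by FBN1, which encodes the microfibril protein fibrillin-1, and LOXL2, a lysyl oxidase, with 8 each, and TNC and VCAN followed with 3 each.

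Signalling genes of fibrosis were hosts as well. In the TGF-beta and SMAD list 14 of 26 genes had a member, with 26 members at 12.3 per Mb (8.03 to 18.0). SMAD3 had 5, with folds of 6.73 to 12.3, the ligand gene TGFB2 had 4, and the ubiquitin ligase gene SMURF2 and the coreceptor gene TGFBR3 had 3 each. In the YAP, TAZ and TEAD list 14 of 21 genes had one, with 27 members at 12.2 per Mb (8.04 to 17.8), of which PTPN14 and TEAD1 had 5 each, STK3 3, and AMOTL2, STK4 and YAP1 2 each. A TEAD match was in 3 of these 27 members, where 14.2% of all members had one. The RUNX list had 23 members in 4 of 7 genes at 12.2 per Mb (7.71 to 18.3), 16 of them in RUNX1 and 5 in RUNX2. Most of the 16 in RUNX1 lay in no intron of its canonical transcript. The AP-1 factor list had 8 in 3 of 17 genes (17.6%), at 8.60 per Mb (3.71 to 16.9), which were BACH1 with 5, BACH2 with 2 and MAFG with 1. None of these 3 genes is of the FOS or JUN family. The members of BACH1, like those of STK3, lay in no intron of the canonical transcript.

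Cytoskeletal genes were hosts of many members. Of 36 actomyosin and adhesion genes 20 had a member, with 77 members at 17.2 per Mb (13.6 to 21.5), led by DST with 15, LPP with 10 and TLN2 with 7, while ACTN4, MYLK and PDLIM5 had 5 each. This interval overlapped those of the matrix glycoprotein, TGF-beta, YAP and RUNX lists, and no difference between lists was tested. Among growth factor receptors and ligands of fibroblasts 15 of 26 had one, with 53 members at 10.9 per Mb (8.17 to 14.3), of which NRG1 had 13, ROR1 7, and ERBB4 and PDGFC 6 each. Integrin genes had 14 members in 8 of 18 genes at 9.51 per Mb (5.20 to 15.9), led by ITGA2 with 4. Intronic regions with an AP-1 site numbered 27 over 4.48 Mb in the actomyosin list and 19 over 5.825 Mb in the collagens. All protein-coding genes had 1531 over 1090 Mb, so these were dense there too. Median backgrounds were 2.86 in the actomyosin, 2.72 in the matrix glycoprotein and 2.49 in the TGF-beta list, against 1.84 over all protein-coding genes. They were 1.86 in the YAP, 1.95 in the RUNX and 1.52 in the integrin list. The part of background was not tested.

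The lists for quiescent stellate cells and other liver cells had 0.386 to 1.72 Mb of eligible intron each, so their counts were small. Quiescent stellate cell genes had 7 members in 5 of 15 genes, at 4.06 per Mb (1.63 to 8.37), with 2 each in ALDH1A2 and NCAM1. Those of ALDH1A2 lay in no intron of its canonical transcript. Hepatocyte genes had none in 16 genes over 0.386 Mb of eligible intron, where the upper limit of a count of 0 was 9.56 per Mb. Macrophage genes had 3 in 2 of 12 genes, at 5.05 per Mb (1.04 to 14.8). Endothelial genes had 5 in 4 of 12, at 6.47 per Mb (2.10 to 15.1). The cholangiocyte list had 1, in EPCAM but outside the introns of its canonical transcript, at 1.95 per Mb (0.0493 to 10.9). The intervals of all these lists contained the 4.75 per Mb of protein-coding genes. Members of 1 gene share a neighbourhood, so the intervals are too narrow for a comparison between lists.

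**Figure D5:**
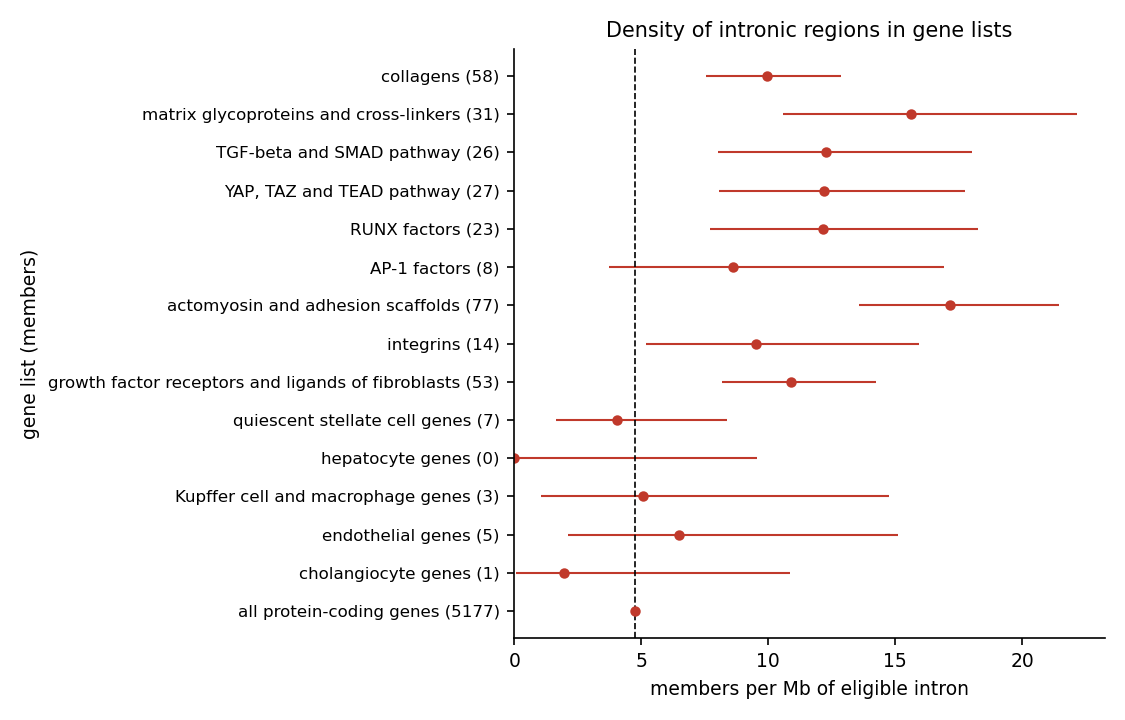
Members per Mb of eligible intron in each gene list, with exact Poisson 95% limits and the number of members in brackets, and a dashed line at the 4.75 per Mb of all protein-coding genes. Actomyosin and adhesion genes reach 17.2 per Mb and matrix glycoproteins 15.6 per Mb, and the intervals of the lists for other liver cell types cross the line.

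The members of highest fold were mostly single regions in genes of varied function. The highest, at 21.5, lay in the long noncoding RNA gene ENSG00000290999 (chromosome 1, 120535034 to 120535414). Its summit was covered by 43 fragments (31.1 to 57.9), with 1.05 in the background, and its window held none of the motifs searched. HERC3, a gene of the HECT ubiquitin ligase family, came second with 18.0, followed by CSPG4, which encodes a pericyte proteoglycan, with 17.0. LOXL1, a lysyl oxidase that cross-links elastic fibres, followed with 16.8, with its region in the first intron 5.13 kb from the nearest start and a pileup of 47 (34.5 to 62.5). The next were ENSG00000267284 with 16.7, ENSG00000290937 with 16.6, ENSG00000227482 with 16.1, the inflammasome sensor gene NLRP1 with 15.8, the sugar phosphate mutase gene PGM3 with 15.6 and CRIM1 with 15.6. A near miss of AP-1 was in the windows of HERC3, CSPG4, ENSG00000227482, NLRP1 and CRIM1, where 46.7% of all members had one. By pileup the order began with COL3A1 at 277, TRIO at 146, COL5A2 at 114, BASP1 at 112 and TRIO again at 93.

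Only 1 member was also covered by a region of the dZF list, against 22 of all 19108 full-length regions (0.115%). It was the one in ENSG00000290937 (chromosome 3, 198173845 to 198174001), where 30 fragments (20.2 to 42.8) lay over a background of 0.865, a fold of 16.6. The dZF region there had 35 fragments (24.4 to 48.7) over a background of 0.625, a fold of 22.2. Its window held no match to any of the motifs. No intronic region with an AP-1 site overlapped a dZF region, whereas 16 intergenic regions without an AP-1 site did. The depth of the dZF pool was not analysed here, so a weaker signal at the other members cannot be told apart from none.

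By distance, the nearest other full-length region was at a median of 16.7 kb from a member (15.8 to 17.4), and within 5 kb for 22.6% (21.6% to 23.6%). The nearest other member was at 37.1 kb (34.8 to 39.5), and within 5 kb for 15.7% (14.9% to 16.6%). No placement at random was compared, so these distances do not say whether members cluster. The nearest region with an AP-1 site was at 123 kb (117 to 129), close to the 117 kb (108 to 129) from an intronic AP-1 region to another region with such a site.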

How the data were processed

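The authors deposited 1 narrowPeak list per construct, each pooled from 3 CUT&RUN libraries and kept by an irreproducible discovery rate filter. The submitters' processing notes name Bowtie2 2.3.4.3, MACS2 2.2.5 and hg38, without their roles or settings. Whether a control library was used is not given in the sources used here. The deposited columns used were a score scaled from the filter (540 to 1000), a fold enrichment ratio over local background, a −log10 p-value and the summit offset. Depth per library is unknown. Pileup and background were recovered from the deposited fold and p-value as the whole number of fragments whose Poisson tail gives that p-value, with 1 fragment added to both terms of the fold. This explained 100% of 19108 full-length records within 0.0001, with a largest miss of 6.94e-05.

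Summits were placed on GENCODE version 44 with Python 3.11.15, numpy 2.4.6, pandas 2.3.3, scipy 1.17.1 and statsmodels 0.14.6. Motifs were searched as exact words on both strands of the 101-base summit window, beside 2 flank windows centred 1 kb away. Overlap with dZF regions required 1 bp. Intervals are at 95%. The recovery, the motif search and the overlaps were tested on simulated data. The members, gene lists and motifs were chosen with earlier results of these data known. The text names the 10 hosts with the most members (14 with ties), the 10 members of highest fold and 5 of highest pileup, dZF overlaps, up to 4 hosts per list and the 10 leading words. Hosts tied with a named host of a list are named too. The COL3A1 and TRIO accounts and the words beyond the leading 10 were chosen after values were seen. Alternatives were other annotations, distances, windows, site definitions and fold limits. A further gene list was left out and is not reported here.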

Additional observations from a re-analysis of the deposited data

How the results depend on the processing

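Over 10 alternative settings, 34 of 58 recomputed values stayed within the limits set for them and 24 moved. Some of the 24 moved by construction. A choice by fold lowers the count of members and raises their median fold, and a longer window holds more words. Taking the upper 50% and 25% of the list by fold left 3169 and 1585 members, with a median fold of 8.66 and 9.75, first-intron shares of 31.0% and 31.1%, RUNX in 13.9% and 13.8%, TEAD in 15.3% and 16.9%, and near misses of AP-1 in 48.9% and 49.5%. Searching 100 bases to each side left 5385 members with a median fold of 7.19, and the longer window held RUNX in 23.7%, TEAD in 26.1% and near misses in 71.0%. The ratios to flanks of equal length were then 1.56, 2.25 and 1.5. Leaving out members with an AP-1 site anywhere in the record, chosen after seeing the data, left 4227, with a median fold of 7.10, RUNX in 13.8%, TEAD in 15.6% and near misses in 49.6%. With protein-coding genes only, 30.4% lay in the first intron and 0 members overlapped a dZF region, because the host of the single overlap is noncoding. Counting the first intron of any transcript gave 53.8%. No paired analysis was possible because the 3 libraries of a construct share 1 pooled list, and for the same reason no library was left out. Low pileups limit the precision, since 20 fragments have limits of 12.2 to 30.9.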
